A study of Arabidopsis thaliana with 20 samples.

Results

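Among 22746 Affymetrix probe sets measured in cultured Arabidopsis thaliana hypocotyls, 24 were silent in the wild type on every kinetin medium and lit up under trichostatin A (TSA). They were chosen by their measured values, as the probe sets with a MAS5 signal below 60 on all 6 wild type kinetin arrays and above 150 on both wild type TSA arrays. MAS5 signal is a brightness per probe set on a linear scale, and the array medians ran from 92.6 to 137, so 60 lies below the middle of every array. The rule used the wild type arrays, so the gap between TSA and the other wild type arrays is a description and carries no test. The 12 arrays of the mutants ckh1-1 and ckh2-1 were not used by the rule.

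The arrays cover 10 groups of 2. The wild type (Ler) received TSA at 100 ng/ml without kinetin. The mutants ckh1-1 and ckh2-1, and the wild type (Ler) as their reference, were each held at 0, 25 or 200 ng/ml kinetin. The TSA arrays thus differ from the wild type arrays at 25 and 200 ng/ml in kinetin as well as in TSA. All groups shared the rest of the culture: segments of the hypocotyl came from 10-day seedlings raised in dim light, and spent 3 days under continuous light on callus induction medium with the auxin 2,4-D at 100 ng/ml. Each mutant is represented by 1 allele. The labels do not say whether the 2 replicates of a group were separate cultures, so a p-value here reflects array-to-array spread, which may be technical. In RNA from whole segments, fewer cells of a type and less RNA per cell cannot be told apart.

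TSA blocks histone deacetylases, the enzymes that take acetyl groups off histone tails. Loss of these groups is a common mark of genes that are kept off, and blocking their removal can allow transcription from otherwise quiet loci. Kinetin is a cytokinin, which with auxin drives callus growth in culture. The mutations ckh1 and ckh2 are known for making tissue respond to less cytokinin. CKH2 is known to encode PICKLE, a chromatin remodelling factor that keeps embryo genes off in seedlings, and CKH1 a TAF12-like subunit of the general transcription factor TFIID.

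Arrays of replicate 1 all had a trimmed mean signal of 310.9 and those of replicate 2 one of 236.9, a ratio of 1.31 that the deposited values carry. A fixed limit such as 60 or 150 is therefore easier to pass on a replicate 1 array. This scaling is balanced over the groups, and called fold changes of members are also given within each replicate number. The tests on the deposited values do not model the scaling, so it widens the spread behind each p-value and can keep a difference from passing. Of the 24 probe sets, 18 also met the rule after all arrays were rescaled to a common trimmed mean. The 6 that did not were those of petD, AT1G33600, CML41 and AT4G02160, and the probe sets 251824_at and 263174_at.

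Silent is a relative word for these genes, and the gap to the TSA arrays was wide for some and narrow for others. The lower TSA array exceeded the highest wild type kinetin array by 2.92-fold for petD and by 29.2-fold for AT2G43660, with a median of 4.32-fold, and 14 of 24 exceeded 4-fold. The median signal of a member over the 6 wild type kinetin arrays ran from 9.10 to 48.0. By their choice all 24 were called higher with TSA at each of these levels, where limma called 5.84%, 5.35% and 6.62% of all probe sets higher with TSA than at 0, 25 and 200 ng/ml kinetin. Just inside the limits lay 263174_at, with a highest wild type kinetin signal of 59.97, and 261511_at, with a lower TSA signal of 152. Just outside lay AT1G71140, with a highest wild type kinetin signal of 60.8, and IAA29, an auxin response repressor, with a lower TSA signal of 149.4.

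**Figure D1:**
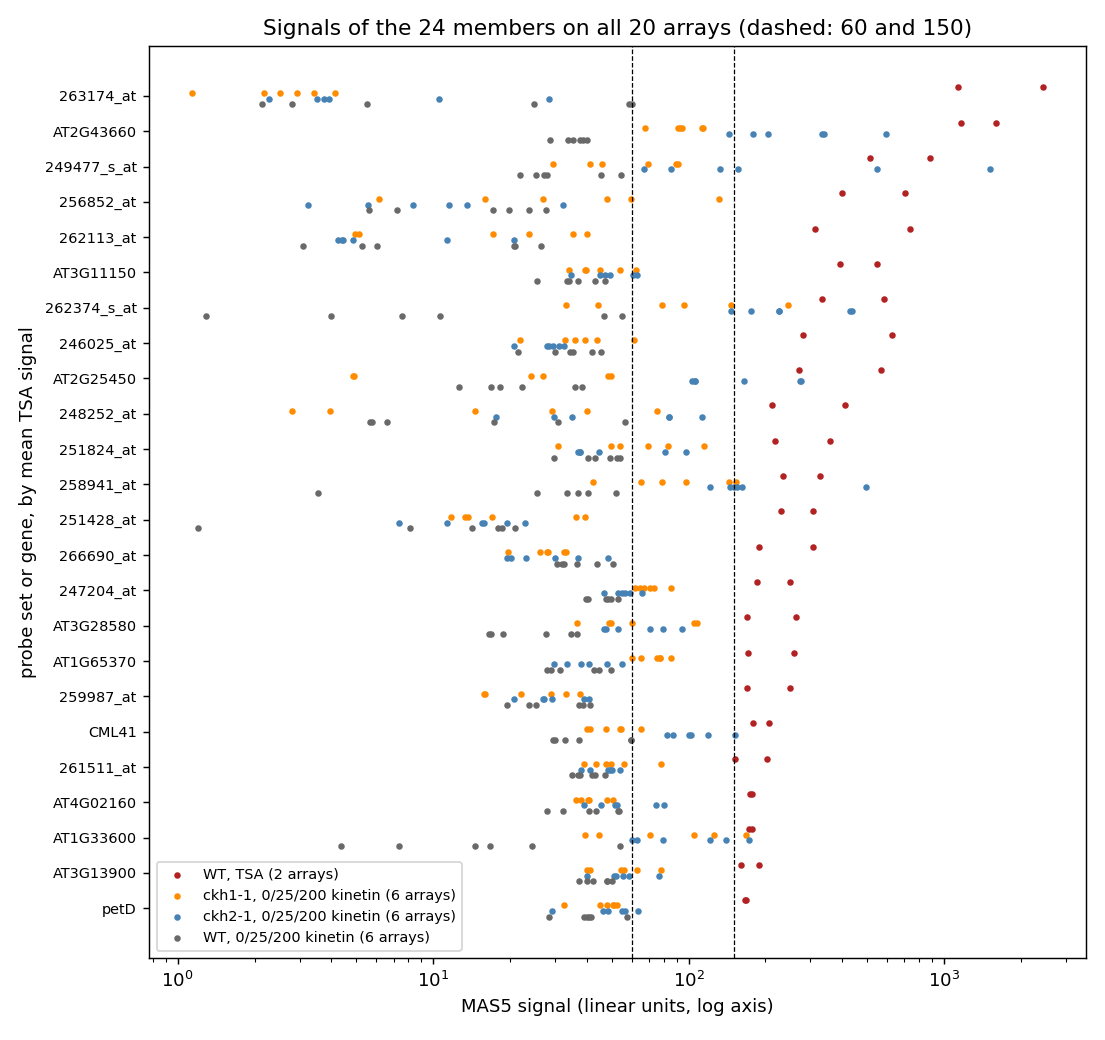
MAS5 signal (log axis) of the 24 probe sets on each of the 20 arrays, ordered by mean TSA signal, with points for wild type with TSA, ckh1-1, ckh2-1 and wild type with kinetin, and dashed lines at 60 and 150. Wild type TSA points lie right of 150 and wild type kinetin points left of 60 by the choice of the set, while the ckh2-1 points of AT2G43660, 249477_s_at, 262374_s_at, AT2G25450, 258941_at, CML41 and AT1G33600 all lie right of 60.

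The name table of the array pairs 10 of the 24 probe sets with 1 gene, 1 with several genes (249477_s_at) and 13 (54.2%) with none. Over all 22746 probe sets 38.4% have no gene in the table, and over the other 7195 probe sets silent in the wild type 28.8%. The 10 named genes include enzymes of small molecules, a protein with a carbohydrate-binding domain, members of families known from signalling, ATPases and a plastid gene. For AT4G02160, also among the 10, no role is given here. The other members are given by their probe set names.

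The widest gap belonged to AT2G43660, which encodes a protein with a carbohydrate-binding X8 domain, a fold known from proteins that bind the wall polymer callose. Its signals were 1596 and 1167 on the TSA arrays of the wild type. On the 6 wild type kinetin arrays the lowest, median and highest were 28.7, 36.3 and 40.01. These values lay close together at all 3 kinetin levels.

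Both small-molecule enzymes with a name are oxygenases that use 2-oxoglutarate and iron. AT3G11150 had signals of 548 and 392 with TSA, against 25.6, 35.5 and 47.0 (lowest, median, highest) on the wild type kinetin arrays. AT2G25450, known as GSL-OH, hydroxylates the side chain of a glucosinolate, a defence compound of the cabbage family. It had signals of 569 and 270 with TSA, against 12.6, 20.3 and 38.3 on the wild type kinetin arrays. In both genes, as in all 24 members, the lower TSA array was replicate 2. By the choice of the set it lay above every wild type kinetin array.

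The next group holds an ATPase and members of families known from signalling. AT3G28580, an ATPase of the AAA type, had 264 and 169 with TSA, against a wild type kinetin range of 16.6 to 36.6. AT1G65370, a TRAF-like protein, had 260 and 171, against 27.8 to 49.9. CML41, a calmodulin-like calcium sensor known for closing plasmodesmata during immune responses, had 207 and 178 with TSA, against 29.5 to 59.6. The leucine-rich repeat protein gene AT1G33600 had 178 and 172 with TSA, against 4.37 to 54.0 on the wild type kinetin arrays. Its TSA arrays differed by far less than its wild type kinetin arrays, whose highest value came from replicate 2 at 25 ng/ml.

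Close to the limits lay AT3G13900, a P-type ATPase of the aminophospholipid flippase family (190 and 160 with TSA, against 37.1 to 50.3), AT4G02160 (177 and 175, against 27.9 to 53.4) and petD. The plastid gene petD, which encodes subunit IV of the cytochrome b6f complex, had 168 and 167 with TSA, against 28.5 to 57.2 on the wild type kinetin arrays. It is the only named plastid gene of the set, and it left the set after rescaling and after quantile normalization. In wild type without kinetin its neighbours were far brighter, petB with 3593 and 2552 and rpoA with 746 and 701. Whether the dim signal of this probe set reflects the petD transcript was not tested. Of 69 plastid probe sets with a name, on a list drawn up after the values were seen, 5 were silent in the wild type, and these include petD. Among the 68 tested, 26 were higher and 0 lower with TSA than in wild type without kinetin (limma, adjusted p below 0.05), against 5.84% higher and 5.13% lower over all probe sets, and petD is 1 of the 26 by its choice.

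The probe set 263174_at has no gene in the table and is singled out here after its values were seen. It had signals of 2441 and 1132 with TSA. Its wild type kinetin arrays gave 58.4 and 59.97 at 25 ng/ml, against values from 2.13 to 24.8 on the other 4. Its mutant signals were low, from 1.14 to 4.13 on the ckh1-1 arrays and from 2.27 to 28.3 on the ckh2-1 arrays. The mean TSA signals of the 24 ran from 167 (petD) to 1787 (263174_at) with a median of 275. In all 24 the replicate 1 TSA array was above the replicate 2 array, by a median of 1.49-fold, where the scaling alone gives 1.31-fold.

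The other 13 members without a single gene were 249477_s_at, 256852_at, 262113_at, 262374_s_at, 246025_at, 248252_at, 251824_at, 258941_at, 251428_at, 266690_at, 247204_at, 259987_at and 261511_at. Their TSA signals ran from 203 (261511_at) to 879 (249477_s_at) on replicate 1 and from 152 (261511_at) to 516 (249477_s_at) on replicate 2. Their highest wild type kinetin signals ran from 21.0 (251428_at) to 56.5 (248252_at).

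The mutants expressed a minority of the set. Above 150 on both arrays of at least 1 kinetin level were 0 of 24 members in ckh1-1 and 4 of 24 in ckh2-1. Over the other 7195 probe sets silent in the wild type, the shares above 150 were 0.0556% in ckh1-1 and 0.125% in ckh2-1. At the lower limit, 8 of 24 members in ckh1-1 and 8 of 24 in ckh2-1 were above 60 on both arrays of at least 1 kinetin level, against 1.57% and 2.29% of the other silent probe sets. By level, 0, 0 and 0 members in ckh1-1 passed 150 on both arrays at 0, 25 and 200 ng/ml, against 0.0139%, 0 and 0.0417% of the other silent probe sets, and 2, 2 and 2 in ckh2-1, against 0.0417%, 0.0556% and 0.111%. For 60 the counts were 3, 7 and 7 in ckh1-1, against 0.445%, 0.723% and 0.987%, and 7, 7 and 8 in ckh2-1, against 0.751%, 1.25% and 1.65%. The members already stood nearer to 60 in the wild type, with a median signal of 34.7 against 12.8 for the other silent probe sets, and the part of this in the counts was not tested. After rescaling, the counts above 150 over the members of that rule were 2 in ckh1-1 and 4 in ckh2-1, not necessarily the same probe sets. Some counts turn on values close to 150. In the deposited scaling 249477_s_at passed in ckh2-1 without kinetin with 156 on its lower array. The probe set 262374_s_at missed in ckh1-1 at 200 ng/ml with 146 on its lower array.

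**Figure D2:**
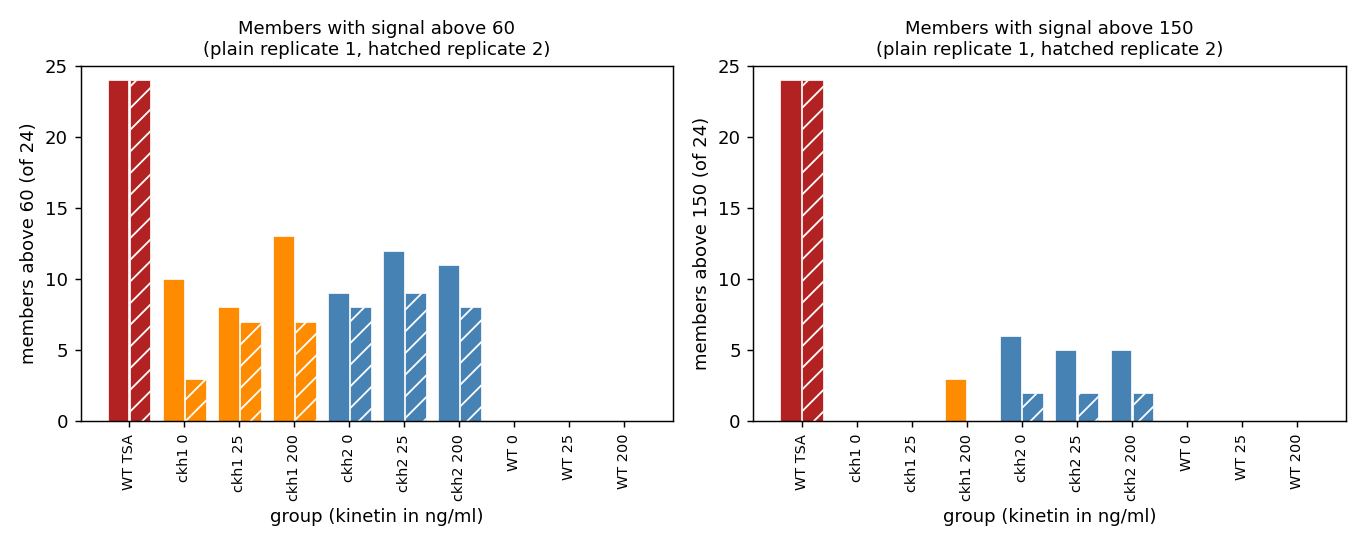
Number of the 24 members with a MAS5 signal above 60 (left) and above 150 (right) on each array, by group with kinetin in ng/ml, replicate 1 plain and replicate 2 hatched. Wild type with TSA holds 24 and wild type with kinetin 0 by the choice of the set; above 150 the ckh1-1 arrays hold 0 to 3 and the ckh2-1 arrays 2 to 6.

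Counted over all kinetin levels, 3 members were above 60 on all 6 ckh1-1 arrays, namely AT2G43660, AT1G65370 and the unnamed 247204_at, and the background share among the other silent probe sets was 0.0556%. In ckh2-1 there were 7, against a background of 0.347%: AT2G43660, AT2G25450, CML41, AT1G33600, 249477_s_at, 258941_at and 262374_s_at. AT2G43660 was the 1 member above 60 on all 12 mutant arrays, where the background was 0.0278%. No member was above 150 on all 6 arrays of a mutant (background 0 in ckh1-1 and 0.0278% in ckh2-1). At the other end, 5 members were above 60 on no mutant array, all of them without a gene in the table: 251428_at, 259987_at, 262113_at, 263174_at and 266690_at. These 5 were chosen after their values were seen, as was 247204_at, and 89.0% of the other silent probe sets were above 60 on no mutant array. Above 60 on no ckh1-1 array were 8 members (background 92.6%) and on no ckh2-1 array 9 (background 93.3%). Above 150 on no ckh1-1 array were 21 (background 99.7%), on no ckh2-1 array 17 (background 99.3%) and on no mutant array 17 (background 99.1%).

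Each member was also set against its own wild type arrays. All 6 ckh1-1 arrays lay above the highest wild type kinetin array for 4 members, and all 6 ckh2-1 arrays for 8, against 0.556% and 1.57% of the other silent probe sets. Log2 fold changes against the wild type are on the scale of log2(signal + 27.4) and understate the change of dim probe sets. Since the rule kept the wild type low, they are given without a test. In ckh1-1 they were at least 1 for 0, 3 and 5 of 24 members at 0, 25 and 200 ng/ml kinetin, against 0.208%, 0.445% and 0.890% of the other silent probe sets and 0.730%, 1.52% and 1.93% of all tested. In ckh2-1 they were at least 1 for 6, 7 and 7 members, against 0.751%, 1.17% and 1.31% of the other silent probe sets and 1.84%, 2.48% and 2.51% of all tested. The medians over the 24 were 0.22, 0.35 and 0.37 in ckh1-1 and 0.13, 0.47 and 0.24 in ckh2-1, while the medians over all tested lay between -0.02 and 0.05. The comparisons of TSA, ckh1-1 and ckh2-1 with wild type share the wild type arrays.

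**Figure D3:**
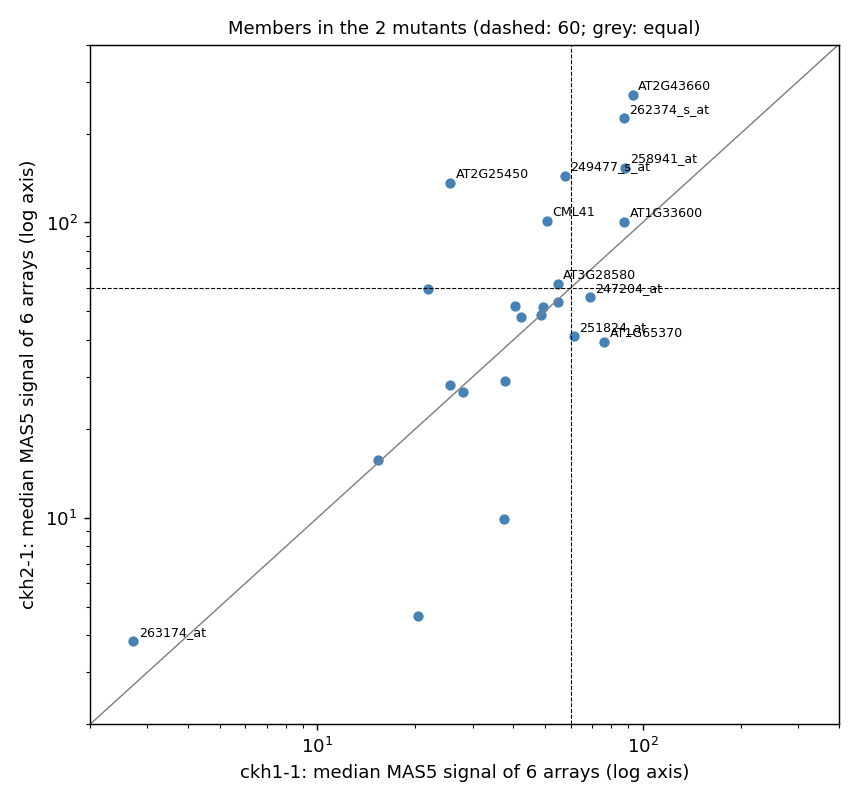
Median MAS5 signal over 6 arrays of each of the 24 members in ckh1-1 (horizontal, log axis) and ckh2-1 (vertical, log axis), with a grey line of equality and dashed lines at 60. AT2G25450 lies far above the line (25.6 in ckh1-1 and 135.7 in ckh2-1), AT1G65370 below it (76.2 in ckh1-1 and 39.3 in ckh2-1), and 263174_at at the bottom left.

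AT2G43660, the X8 domain gene, was the member above 60 on all mutant arrays. In ckh1-1 its signals were 93.9 and 90.8 without kinetin, 114 and 92.3 at 25 ng/ml, and 113 and 67.8 at 200 ng/ml. In ckh2-1 they were 179 and 144 without kinetin, 338 and 206 at 25 ng/ml, and 596 and 333 at 200 ng/ml. The mutants did not overlap at any level, ckh2-1 stood higher throughout, and both stayed below the TSA level of the wild type. At 200 ng/ml AT2G43660 was lower in ckh1-1 than in ckh2-1 by a log2 difference of -2.04 ± 0.28 (SE; limma adjusted p = 0.000401), with -2.15 and -1.92 within replicates 1 and 2. This call held under all alternatives tried, with adjusted p from 4.9e-06 to 0.0273. At 25 ng/ml the log2 difference of -1.16 ± 0.28 did not pass (limma adjusted p = 0.0611), and it passed after rescaling (limma adjusted p = 0.00102). Without kinetin the log2 difference of -0.65 did not pass (limma adjusted p = 0.477).

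The glucosinolate hydroxylase gene AT2G25450 was above 60 on all 6 ckh2-1 arrays and on 0 ckh1-1 arrays. Its ckh1-1 signals were 24.1 and 4.90 without kinetin, 49.7 and 27.0 at 25 ng/ml, and 48.4 and 4.86 at 200 ng/ml, which overlap the wild type range. Its ckh2-1 signals were 276 and 106 without kinetin, 165 and 106 at 25 ng/ml, and 274 and 103 at 200 ng/ml. Every ckh2-1 array lay above every ckh1-1 array. AT2G25450 was lower in ckh1-1 than in ckh2-1 without kinetin by a log2 difference of -2.31 ± 0.46 (limma adjusted p = 0.0181) and at 200 ng/ml by -2.00 ± 0.46 (limma adjusted p = 0.0285), and the difference of -1.31 at 25 ng/ml did not pass (limma adjusted p = 0.272). Within replicates 1 and 2 the differences were -2.56 and -2.05 without kinetin and -1.99 and -2.02 at 200 ng/ml. The call without kinetin was lost without replicate 2 of ckh1-1 (adjusted p = 0.207), without replicate 1 of ckh2-1 (adjusted p = 0.403) and with no filter on dim probe sets (adjusted p = 0.062). The call at 200 ng/ml was lost without replicate 2 of ckh1-1 (adjusted p = 0.54), without replicate 1 of ckh2-1 (adjusted p = 0.507) and with no filter (adjusted p = 0.0937).

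In all, limma called 1 of 24 members lower in ckh1-1 than in ckh2-1 without kinetin and 0 higher (8 had an unadjusted p below 0.05), against 0.756% lower and 0.297% higher over all 15469 tested. At 25 ng/ml it called 0 of 24 in either direction (8 had an unadjusted p below 0.05), against 0.918% of all tested. After rescaling it called 5 of 24 at that level, where it called 5.47% of all tested. Rescaling also raised the shares over all tested to 5.22% without kinetin and 6.78% at 200 ng/ml, which bears on each call after rescaling named here. At 200 ng/ml it called 2 lower and 0 higher (4 had an unadjusted p below 0.05), against 1.18% lower and 0.414% higher. Over all 15469 tested, 1357, 1326 and 1430 had an unadjusted limma p below 0.05 at 0, 25 and 200 ng/ml. All 24 passed the filter on dim probe sets, since the TSA signal alone carries a member past it.

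The 3 other members that passed 150 on both arrays of a ckh2-1 group have no single gene in the table. The probe set 262374_s_at had 226 and 146 without kinetin, 436 and 176 at 25 ng/ml, and 428 and 225 at 200 ng/ml in ckh2-1. In ckh1-1 it had 44.3 and 33.1, 96.4 and 78.9, and 245 and 146 at the same levels. The probe set 258941_at had 151 and 162, 497 and 145.5, and 155 and 122 in ckh2-1, and in ckh1-1 78.4 and 42.4, 98.2 and 65.0, and 153 and 144. At 200 ng/ml the mutants overlapped in both of these probe sets when all arrays are compared. Within replicates 1 and 2 the log2 differences, ckh1-1 minus ckh2-1, were -0.74 and -0.54 for 262374_s_at. For 258941_at they were -0.02 and 0.20. Neither passed the test between the mutants at any level, with the lowest limma adjusted p at 0.0937 for 262374_s_at without kinetin and 0.0965 for 258941_at at 25 ng/ml. After rescaling, 262374_s_at passed without kinetin (adjusted p = 0.0205) and at 25 ng/ml (adjusted p = 0.0478), and 258941_at at 25 ng/ml (adjusted p = 0.024).

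The probe set 249477_s_at, which matches several genes, had replicates that disagreed. In ckh2-1 it had 156 and 545 without kinetin, 1510 and 85.2 at 25 ng/ml, and 133 and 66.6 at 200 ng/ml, and in ckh1-1 29.4 to 90.6. Replicate 1 at 25 ng/ml lay above both TSA arrays (879 and 516), and replicate 2 without kinetin above the lower one. The log2 differences between the mutants of -2.37, -1.97 and -0.40 at 0, 25 and 200 ng/ml did not pass (limma adjusted p = 0.156, 0.318 and 1.0).

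The calcium sensor gene CML41 gave 153 and 82.4 without kinetin, 120 and 87.1 at 25 ng/ml, and 100.2 and 102 at 200 ng/ml in ckh2-1, and 40.1 to 64.9 in ckh1-1. All ckh2-1 arrays lay above all ckh1-1 arrays, but the log2 differences of -0.92, -0.80 and -0.63 did not pass (limma adjusted p = 0.141, 0.25 and 0.458). AT1G65370 stood the other way round, with 60.1 to 85.6 in ckh1-1 and 29.7 to 54.7 in ckh2-1. All its ckh1-1 arrays lay above its highest wild type array (49.9). Its log2 differences, ckh1-1 minus ckh2-1, of 0.61 and 0.70 without kinetin and at 25 ng/ml did not pass either (limma adjusted p = 0.289 and 0.174), and the one at 25 ng/ml passed after rescaling (limma adjusted p = 0.0412).

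**Figure D4:**
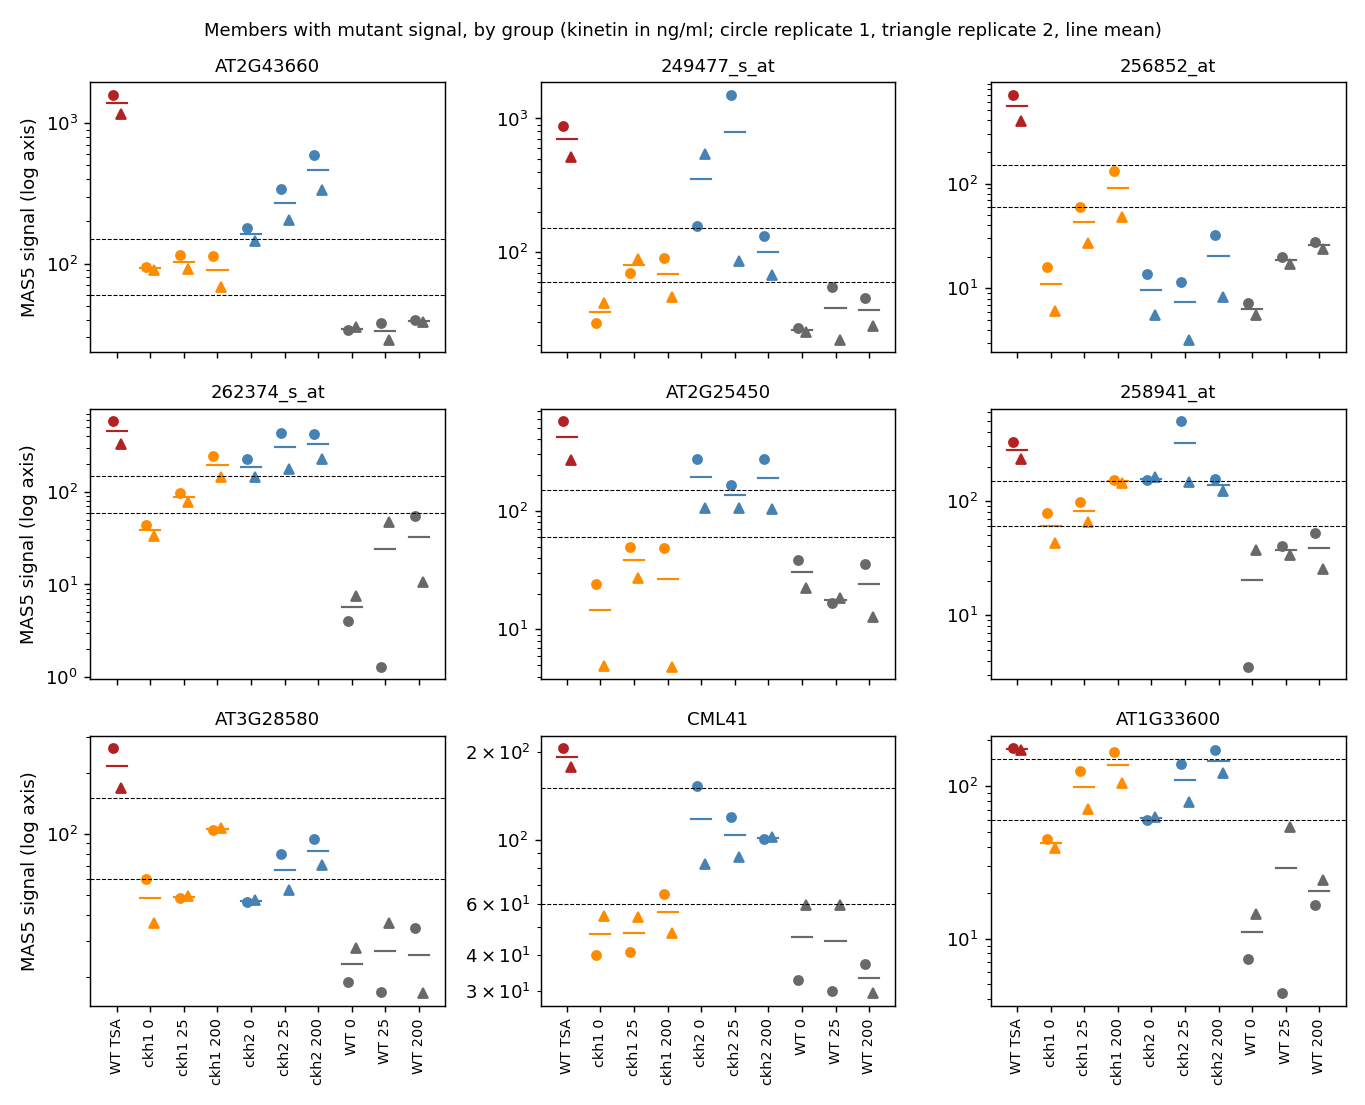
MAS5 signal (log axis) by group for the 9 members above 60 on all 6 ckh2-1 arrays or called by a test, with kinetin in ng/ml, replicate 1 as circles, replicate 2 as triangles, the mean as a line and dashed lines at 60 and 150. AT2G43660 stands higher at each kinetin level in ckh2-1 than in ckh1-1, and AT1G33600 stands higher with kinetin in both mutants, while the wild type kinetin arrays lie below 60 by the choice of the set.

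Within a mutant, limma called some members between kinetin levels. In ckh1-1, 4 of 24 were higher at 200 ng/ml than without kinetin and 0 lower (limma, adjusted p below 0.05), against 5.28% higher and 5.71% lower over all tested. That count does not set the members apart. In either direction 5 of 24 were called after rescaling, against 28.1% of all tested, and 6 after quantile normalization, against 26.2%. With the replicate number as a block 5 were called, against 33.3%. The leucine-rich repeat gene AT1G33600 had 168 and 105 at 200 ng/ml, 126 and 70.6 at 25 ng/ml, and 44.8 and 39.4 without kinetin in ckh1-1, so the arrays at 200 ng/ml and without kinetin did not overlap. It rose by a log2 fold change of 1.21 ± 0.35 (limma adjusted p = 0.0268), 1.44 and 0.99 within replicates 1 and 2. The ATPase gene AT3G28580 had 105 and 107.5 at 200 ng/ml, against 60.1 and 36.6 without kinetin, and rose by 0.84 ± 0.27 (limma adjusted p = 0.0495), 0.60 and 1.07 within replicates 1 and 2. The unnamed probe sets 262374_s_at and 256852_at rose by 1.72 ± 0.46 (limma adjusted p = 0.016) and 1.52 ± 0.34 (limma adjusted p = 0.00501). Within replicates 1 and 2 the log2 fold changes were 1.93 and 1.52 for 262374_s_at and 1.88 and 1.17 for 256852_at. The signals of 256852_at were 132 and 47.8 at 200 ng/ml, against 16.0 and 6.14 without kinetin, and in ckh2-1 it stayed between 3.23 and 32.1 throughout. After rescaling it was higher in ckh1-1 than in ckh2-1 at 200 ng/ml (log2 difference 1.26, limma adjusted p = 0.00997), and in the deposited scaling it did not pass (limma adjusted p = 0.0797).

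These calls depended on single arrays. Leaving an array out leaves 1 array in its group, and calls over all probe sets in this comparison fell each time as well. The losses below are therefore not particular to the members. Without replicate 1 of ckh1-1 without kinetin 1 of the 4 remained, as AT1G33600 (adjusted p = 0.0926), AT3G28580 (adjusted p = 0.054) and 262374_s_at (adjusted p = 0.0529) were lost, and without replicate 2 of that group 0 remained (adjusted p = 0.122, 0.3 and 0.0966, and 0.0594 for 256852_at). Without replicate 1 of ckh1-1 at 200 ng/ml 0 remained either (adjusted p = 0.242, 0.165, 0.178 and 0.15 in the same order), and without replicate 2 AT3G28580 was lost (adjusted p = 0.192). A pseudocount of 2.74 in place of 27.4 left 1 call, where 11.2% of all tested were called in either direction, and no filter left 2, where 6.67% were.

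In ckh2-1, AT2G43660 was the only member called at 200 ng/ml against no kinetin, and 0 were lower, against 4.05% higher and 4.23% lower over all tested. After rescaling 1 of 24 was called in either direction, against 20.8% of all tested. AT2G43660 rose by a log2 fold change of 1.33 ± 0.28 (limma adjusted p = 0.00379), 1.60 and 1.07 within replicates 1 and 2. The call was lost without replicate 2 of ckh2-1 without kinetin (adjusted p = 0.0622). It was also lost when replicate 1 of ckh2-1 at 200 ng/ml was left out (adjusted p = 0.132). The ckh1-1 signals of this gene at 200 ng/ml (113 and 67.8) surrounded those without kinetin (93.9 and 90.8). The difference between the mutants in this response, ckh1-1 minus ckh2-1, was -1.39 ± 0.40 and did not pass (limma adjusted p = 0.436), while it passed after rescaling (adjusted p = 0.0119) and after quantile normalization (adjusted p = 0.0157). Both settings also raised such calls over all 15469 tested. They were 29 higher and 64 lower after rescaling and 26 and 40 after quantile normalization, against 2 and 11 in the deposited scaling. AT1G33600 in ckh2-1 had 173 and 121 at 200 ng/ml, against 60.1 and 62.6 without kinetin, a log2 fold change of 0.96 that did not pass (limma adjusted p = 0.11).

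At 25 ng/ml against no kinetin limma called 0 of 24 members in ckh1-1 (2 with an unadjusted p below 0.05) and 0 in ckh2-1 (2 with an unadjusted p below 0.05), against 1.93% and 0.0905% of all tested. Between 200 and 25 ng/ml it called 0 in ckh1-1 (1 with an unadjusted p below 0.05) and 0 in ckh2-1 (3 with an unadjusted p below 0.05), against 1.81% and 2.77% of all tested. Over all 15469 tested, 1489 in ckh1-1 and 578 in ckh2-1 had an unadjusted limma p below 0.05 at 25 ng/ml against no kinetin. Between 200 and 25 ng/ml these were 991 and 1483. No member differed between the mutants in its response to either dose by limma in the deposited scaling, where 0 and 0.0840% of all tested did. For 25 and 200 ng/ml, 0 and 2 members had an unadjusted limma p below 0.05, against 260 and 655 of all tested.

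The genes next to the members were also looked up. Of 20 protein-coding genes that flank the 10 named members in the RefSeq gene order (TAIR10.1), 11 have a named probe set, and 4 of these were silent in the wild type. None of these 4, AT3G11160, AT2G25460, AT3G28590 and AGL23, went past 60 with TSA: their signals were 6.09 to 40.8. Of the 7 tested, 1 was called higher with TSA than in wild type without kinetin and 0 lower, against 5.84% higher and 5.13% lower over all tested. It was AT2G43670, which follows AT2G43660 and also encodes an X8 domain protein, with 294 and 201 with TSA, against 67.4 and 47.1 in wild type without kinetin (log2 fold change 1.69, limma adjusted p = 0.000104). The plastid neighbours petB and rpoA of petD were bright throughout, petB with 4488 and 3493 with TSA, against 3593 and 2552 without kinetin, and neither passed (limma adjusted p = 0.353 and 0.843).

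Apart from petD on the plastid list, no gene of the lists drawn up for the tissue and the drug was a member. This says little about those gene classes, since few listed genes could have been members. Outside the plastid list only HDA7, AT5G07230, FMA, SPCH and MUTE had a named probe set silent in the wild type. Members were 0.332% of all silent probe sets. Of 16 histone deacetylase genes 2 were named on the array. HDA15 had 337 and 255.5 with TSA, against 405 and 307 in wild type without kinetin (limma adjusted p = 0.638). HDA7 had 3.69 and 13.1 with TSA, against 4.32 and 2.75 in wild type without kinetin. The embryo factor BBM, the 1 named gene of 19 embryo and seed genes, was low with TSA (1.68 and 1.23), against 274 and 149 in wild type without kinetin (limma adjusted p = 3.22e-06). Of 15 tau class glutathione transferases, which conjugate foreign compounds, 3 were named on the array. Of these 3, limma called 0 higher and 2 lower with TSA than in wild type without kinetin. The shares over all tested were 5.84% higher and 5.13% lower. Of 19 anther and pollen coat genes 2 were named on the array: AT5G07230 had 33.3 and 13.8 with TSA, against 9.48 and 3.56 without kinetin, and AT1G75920 had 87.1 and 60.1, against 32.2 and 56.4. None of the 18 floral and meristem genes had a named probe set, nor did the root tip, photosynthetic and xylem markers. The 3 named markers of the guard cell lineage, FMA, SPCH and MUTE, were silent in the wild type on all kinetin media, and their TSA signals were 1.42 to 36.9.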

How the data were processed

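Affymetrix arrays of hypocotyl RNA were used. The deposited values are MAS5 signal intensity on the linear scale, per the submitters' processing notes. The MAS5 version is not given in the sources used here, nor is its target signal. Per the labels' protocols, RNA was extracted with RNeasy and labelled as biotinylated cRNA. Arrays were grouped by their titles. Control probe sets (64 of 22810) were left out.

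For tests, 15469 probe sets were kept, those whose mean exceeded the 40th percentile of the log2 values in at least 1 group, and analysed as log2(signal + 27.4), the addition being 0.1 of the median trimmed mean (2% trimmed), in 1 fit of 10 group means over 20 arrays (limma 3.58.1, R 4.3.3, eBayes with trend), with Benjamini-Hochberg adjustment per comparison. The number of arrays limits the precision. The procedure was also run on simulated data with independent noise on each array. That run held no scaling shared by a replicate number, so it does not check the effect of the scaling seen here. Named were all members with 1 gene, and any member above 150 on both arrays of a mutant group or called within or between the mutants. Gene names come from the array's name table. Alternatives were other limits, scaling, filter and pseudocount, the replicate number as a block and single arrays left out. The members and lists were chosen with earlier results of these data known. The difference between the mutants in the kinetin response was added after seeing the data.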

Additional observations from a re-analysis of the deposited data

How the results depend on the processing

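Membership depends on the limits and the scaling: 25 probe sets met the rule after rescaling (18 of the 24), 32 after quantile normalization (21 of the 24), 4 with limits of 40 and 200, and 81 with limits of 80 and 120. On replicate 1 arrays alone 79 met it, and on replicate 2 arrays alone 41. The counts that follow are over the members of each setting, so their totals differ. With 1 replicate number a group holds 1 array, which is easier to pass than both. The count above 150 in a ckh1-1 group, 0 as reported, was 2 after rescaling, 2 after quantile normalization, 3 with the looser limits, 6 on replicate 1 arrays and 1 on replicate 2 arrays. The count in a ckh2-1 group, 4 as reported, was 0 with the stricter limits, 9 with the looser, 18 on replicate 1 arrays and 8 on replicate 2 arrays.

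The replicate numbers share a scaling. Over 45 pairs of groups the replicate 1 deviations correlated from -0.133 to 0.64, with a median of 0.204, above 0.1 in 27. Part of the spread thus goes with the replicate number, and the reported fit does not model it. Whether the numbers pair the samples was not settled. Between the mutants at 25 ng/ml the reported fit called 0.918% of all, against 7.31% with the block and 5.47% after rescaling. With the replicate number as a block, calls among the members were 1 for ckh1-1 at 25 against 0 ng/ml, 1 for ckh2-1 at 200 against 25 ng/ml, and 4 without kinetin and 5 at 25 ng/ml for ckh1-1 against ckh2-1, where the block called 9.51%, 9.36%, 6.72% and 7.31% of all probe sets. Under the block the lower CML41 signal in ckh1-1 without kinetin passed (limma adjusted p = 0.0492), as did the kinetin response difference of AT2G43660 (limma adjusted p = 0.0218). For that response difference the block called 51 probe sets higher and 86 lower over all tested. Rescaling gave 1, 3 and 5 for the last 3 of these comparisons (7.62%, 5.22% and 5.47% of all), and quantile normalization 1, 3 and 4 (7.78%, 5.21% and 5.71% of all), with 1 for ckh1-1 at 200 against 25 ng/ml (3.17% of all). With no filter the calls were 2 for ckh1-1 at 200 against 0 ng/ml, and 0 without kinetin and 1 at 200 ng/ml between the mutants (6.67%, 0.40% and 0.870% of all); more probe sets were then tested. The smaller pseudocount gave 1 for ckh1-1 at 200 against 0 ng/ml (11.2% of all). The cause was not tested for the others. Leaving a single array out leaves 1 array in its group. Member calls at 200 against 0 ng/ml, and between the mutants at 0 and 200 ng/ml, then fell in some fits and rose in none. Calls over all probe sets fell in each of these fits. Between the mutants at 25 ng/ml, leaving out replicate 2 of ckh2-1 raised member calls and calls over all probe sets. For ckh2-1 at 200 against 25 ng/ml, leaving out replicate 2 at 25 ng/ml raised member calls, while calls over all probe sets fell slightly. Of the 8 called fold changes, 1 kept its call under all alternatives tried, and none changed sign. Signals near the floor limit what can be said of dim members.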
